A study of Arabidopsis thaliana with 3 samples.

Results

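The origin recognition complex (ORC) is the protein assembly that marks the sites where DNA replication can begin. The Arabidopsis thaliana genes for its subunits were taken from the deposited table by locus, with ORC1A (AT4G14700), ORC1B (AT4G12620), ORC2 (AT2G37560), ORC3 (AT5G16690), ORC4 (AT2G01120), ORC5 (AT4G29910) and ORC6 (AT1G26840) as members. All 7 were found among 33602 listed transcripts, each as 1 transcript. ORC4 is listed by its second transcript model and the others by their first. The group was named from its complex and selected on the sperm levels of its genes, already known from this table, so those levels describe the genes and support no test.

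The data are RNA-seq values of sperm cells, the male gametes that each pollen grain carries, isolated by fluorescence-activated sorting from wild-type plants of the ecotype Col-0. The labels describe 3 sperm libraries made with Smart-seq2, which amplifies whole cDNAs from the polyadenylated RNA of few cells, and nothing in them ties a library to its own plants or sort. The table gives 1 sperm column, the authors' mean in TPM, a share of all transcripts that is corrected for transcript length and can therefore be compared between genes. The other 13 columns are the authors' values for mature pollen and for public libraries processed the same way: flower, carpel, receptacle, root apical meristem (RAM), root, shoot apical meristem (SAM), seedling, leaf, dry seeds and embryos of the 2-cell, 8-cell and 32-cell stages. The design text pairs the 2-cell column with 1-cell and 2-cell embryos. Nothing in the labels gives their genotype, growth or age. The public libraries are not samples of this series. Tissue, study and library method therefore cannot be told apart when sperm is set against them. Each column is 1 number per gene, so no value below has an error, no difference was tested, and neighbours in any order of levels cannot be set against their spread. TPM values hold no counts, so the depth behind them is unknown.

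In eukaryotes ORC binds origins and, together with CDC6 and CDT1, loads the MCM helicase onto DNA before S phase, a step called licensing. ORC1 to ORC5 are related to AAA+ ATPases, while ORC6 resembles the transcription factor TFIIB, and work in yeast and animals places ORC6 in helicase loading. In plants ORC1 also carries a PHD finger and a BAH domain, both readers of histones. Plant sperm have been reported to pass through S phase late in their development, before or around fertilization.

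The column labels were checked against marker genes. All 6 male germline markers were higher in the sperm column than in any other column, from 52.8 TPM for DAZ1 to 11141 TPM for DAZ3. The 6 vegetative cell and pollen tube markers lay between 0.0350 TPM (VEX1) and 127 TPM (AGP6) in the sperm column, and all 6 were higher in the pollen column, from 4.63 TPM (VEX1) to 8362 TPM (AGP11). The part of vegetative cell RNA in the sperm values was not tested. The dry seed, embryo and leaf lists were highest in the columns of those names, except that WOX2 was also at 54.4 TPM in dry seeds. The SAM column held STM at 5.05 TPM and CLV3 at 0.193 TPM, listed WUS at 0 and held LHCA1, a leaf photosynthesis gene, at 4519 TPM. The root meristem genes PLT1 and PLT2 were at 8.22 TPM and 2.80 TPM in RAM. PLT1 was higher in 8-cell embryos, at 32.9 TPM, and PLT2 in 2-cell embryos, at 38.5 TPM. WOX5 was at 1.28 TPM in RAM and 2.60 TPM in SAM, and STM was at 103 TPM in receptacle. These markers therefore did not single out the RAM and SAM columns.

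ORC6 was the member that stood apart in sperm. Its level was 5205 TPM in the sperm column, which placed it 29th of the 33602 transcripts. In the other columns it was at 41.3 TPM in pollen, 28.5 in flower, 18.5 in 2-cell embryos, 15.3 in carpel, 12.8 in 32-cell embryos, 9.56 in root, 9.05 in SAM, 6.84 in 8-cell embryos, 6.66 in receptacle, 3.80 in RAM, 1.58 in seedling, 1.40 in leaf and 0.877 in dry seeds. The sperm level was thus 126 times that of pollen, the next column, and 575 times the median of the 13 other columns, which was 9.05 TPM. On the log2(TPM + 1) scale the sperm value exceeded that median by 9.02, a difference that was the 47th largest of all transcripts. Multiplied by 3 the sperm mean gives 15613.68 TPM, and a value with 6 significant digits shows a second decimal only below 10000 TPM, so at least 2 of the 3 libraries held ORC6 transcripts, though 1 library could still hold most of the sum.

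**Figure D1:**
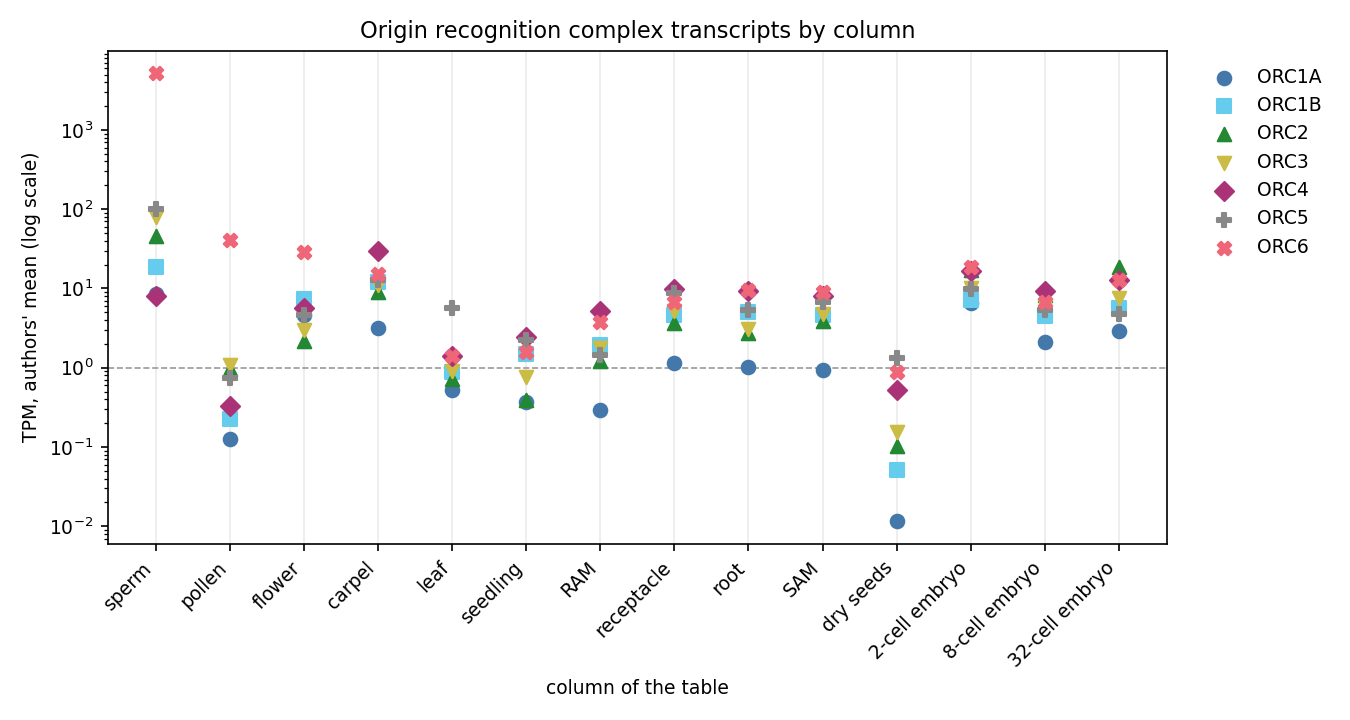
Level of each origin recognition complex gene in TPM (vertical axis, log scale) in each of the 14 columns (horizontal axis), with 1 marker per gene and a dashed line at 1 TPM. ORC6 in sperm, at 5205 TPM, lies far above every other point, and ORC4 and ORC1A are the lowest members in sperm.

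ORC6 made up most of the ORC RNA of sperm. The 7 members summed to 5467 TPM in sperm, of which ORC6 gave 95.2%, and the next member, ORC5, was 51.0 times lower than ORC6. In pollen ORC6 gave 92.2% of 44.8 TPM, and in flower 51.0% of 55.9 TPM. In the 11 columns left, its share lay between 12.2% in leaf and 28.7% in dry seeds, and it stood at 0.249 to 1.12 times the highest of the other members. ORC6 was the highest member in 6 columns (sperm, pollen, flower, root, SAM and 2-cell embryos), ORC4 in 5, ORC5 in 2 and ORC2 in 1.

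**Figure D2:**
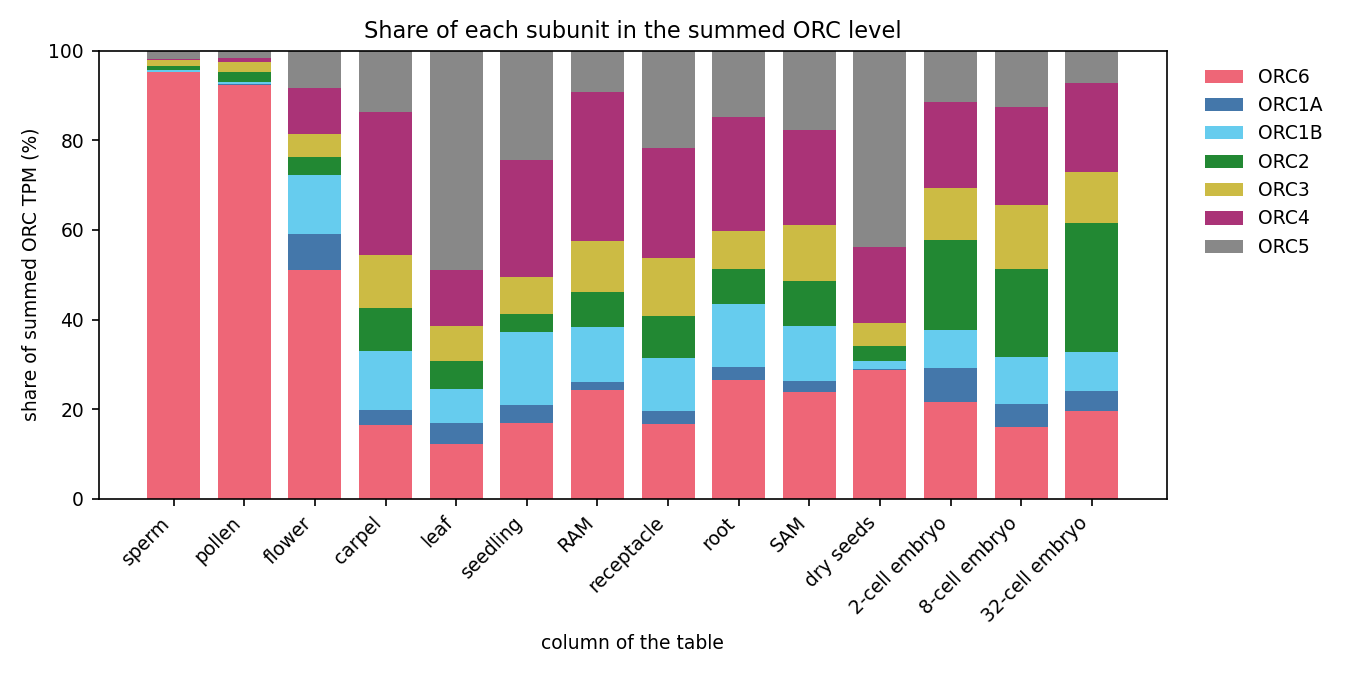
Share of each gene in the summed TPM of the 7 origin recognition complex genes (vertical axis, %) in each column (horizontal axis), as stacked bars with ORC6 at the bottom. ORC6 fills 95.2% of the sperm bar, 92.2% of the pollen bar and 51.0% of the flower bar, and at most 28.7% of any other.

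The columns after sperm in the order of ORC6 levels, pollen and flower, also held germline markers. In pollen ORC6 was at 0.793% of its sperm level, beside 0.785% for HTR10, the male gamete histone H3 gene, 0.773% for DUO1 and 1.06% for DAZ3. The 6 germline markers ranged from 0.773% to 4.15% and the 7 ORC genes from 0.738% for ORC5 to 4.16% for ORC4. At the ends of these ranges ORC5 (0.752 TPM), ORC4 (0.334 TPM) and DUO1 (0.636 TPM) were under 1 TPM in pollen. Such shares were not particular to ORC: CDT1A was at 1.26% and MCM3 at 2.22%, though CDC6A was at 5.09%. The 7281 transcripts at or above 1 TPM in sperm had a median of 7.14%. The ratio of ORC6 to HTR10 was 1.10 in sperm and 1.11 in pollen. In flower ORC6 was at 0.547% of its sperm level, HTR10 at 0.249%, DAZ3 at 0.487% and DUO1 at 0.732%, while ORC2, ORC3 and ORC5 were at 3.75% to 4.75% and ORC1A, ORC1B and ORC4 at 39.8% to 71.1% of theirs. In such bulk tissues fewer cells of a type and less RNA per cell cannot be told apart, and the part of sperm RNA in the pollen and flower values was not tested.

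**Figure D3:**
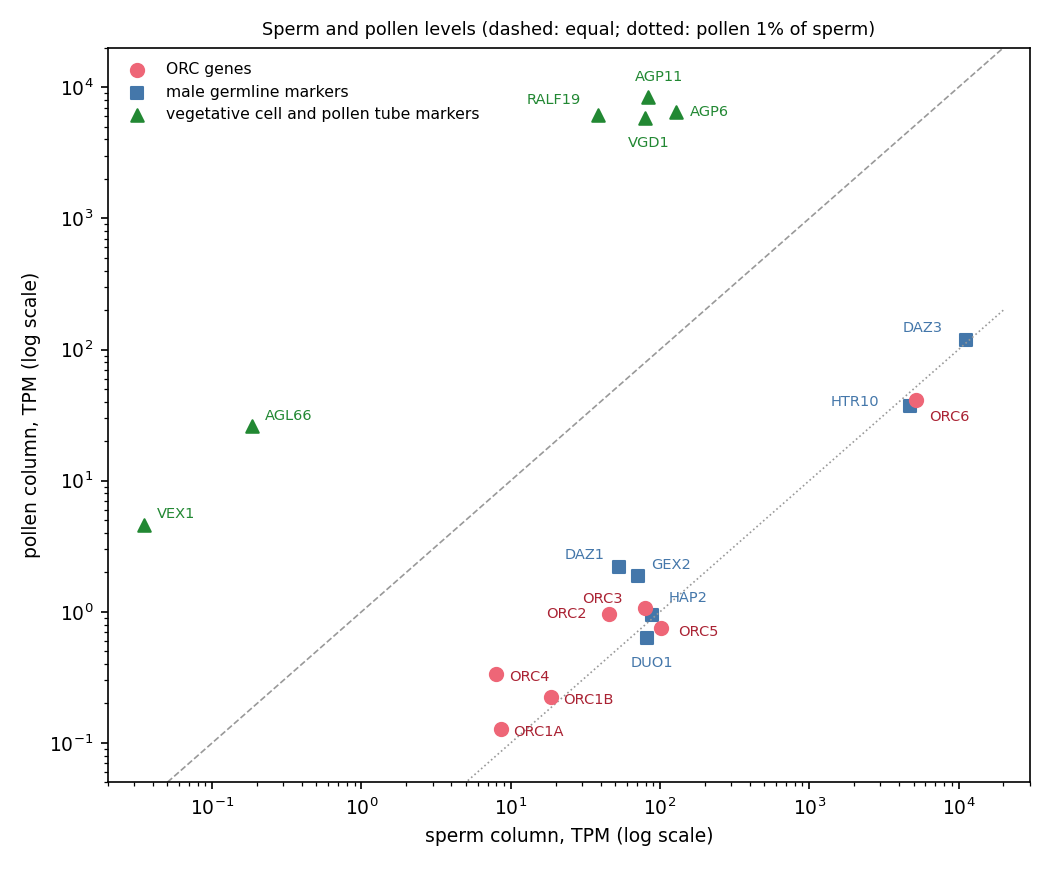
Level in the sperm column (horizontal axis, TPM, log scale) against the pollen column (vertical axis, TPM, log scale) for the 7 origin recognition complex genes, 6 male germline markers and 6 vegetative cell and pollen tube markers, with lines where pollen equals sperm and where it is 1% of it. The ORC genes lie with the germline markers near the lower line, and all vegetative markers lie above the upper line.

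The largest subunit is encoded by a pair of similar genes, ORC1A and ORC1B. In Arabidopsis ORC1B has been described as the form of dividing cells and ORC1A as the form of cells that copy their DNA without dividing. ORC1B was at 18.5 TPM in sperm, and in the 13 other columns between 0.0519 TPM in dry seeds and 12.1 TPM in carpel, with a median of 4.66 TPM. ORC1A was at 8.62 TPM in sperm, and elsewhere between 0.0115 TPM in dry seeds and 6.57 TPM in 2-cell embryos, with a median of 1.01 TPM. Both were highest in sperm, by a factor of only 1.53 for ORC1B over carpel and 1.31 for ORC1A over 2-cell embryos.

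ORC1A was below ORC1B in all 14 columns, and it was the lowest of all members in 12 of them. The difference of log2(TPM + 1), ORC1A minus ORC1B, was -1.02 in sperm and reached -1.66 in carpel and -1.60 in root. ORC1A gave 31.8% of their sum in sperm, against 47.7% in 2-cell embryos, where the genes were closest in their ratio, and 13.4% in RAM, where they were farthest apart. The difference on the log2 scale is small in dry seeds (-0.06) and pollen (-0.12) because both genes were under 1 TPM there. How the authors' estimation divided reads between the similar genes is not known, so their sum is firmer than either value. That sum was 27.1 TPM in sperm, 15.2 in carpel and 13.8 in 2-cell embryos, the next columns.

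**Figure D4:**
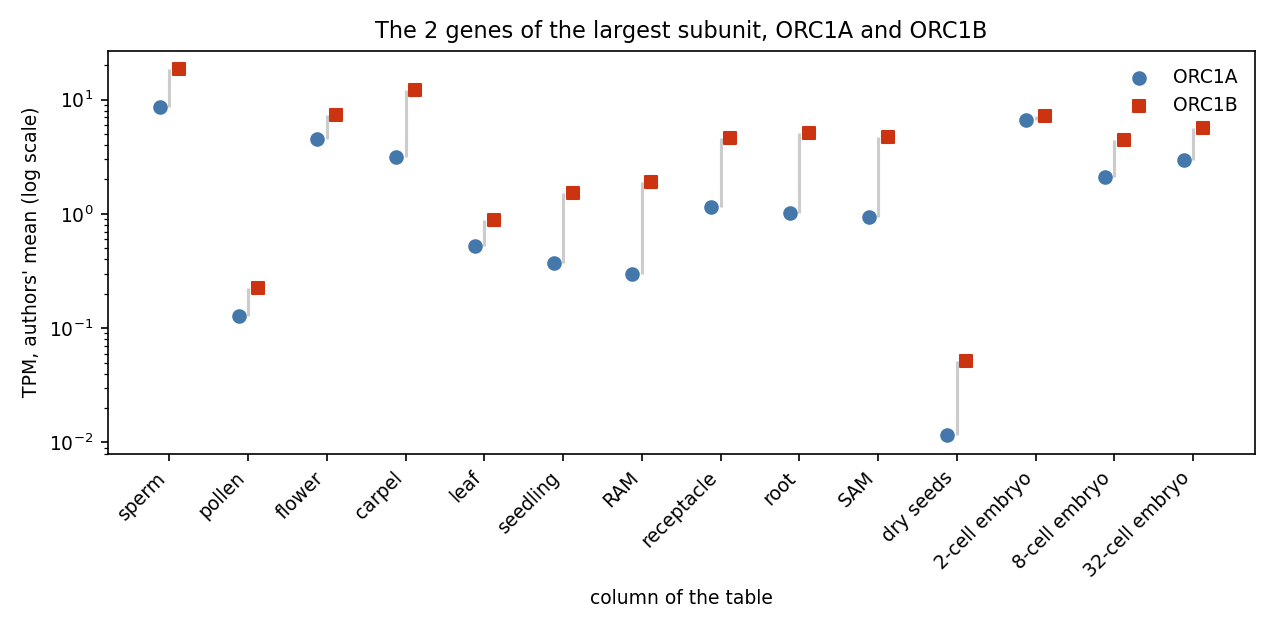
Levels of ORC1A (circles) and ORC1B (squares) in TPM (vertical axis, log scale) in each of the 14 columns (horizontal axis), joined by a line within a column. ORC1A lies below ORC1B in every column, with the narrowest gap in 2-cell embryos.

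ORC2, ORC3 and ORC5, core subunits of the ring, formed the middle group in sperm. ORC5 was at 102 TPM in sperm, against 0.752 TPM in pollen to 12.6 TPM in carpel in the other columns, with a median of 5.31 TPM. ORC3 was at 79.4 TPM in sperm, against 0.155 TPM in dry seeds to 11.0 TPM in carpel, with a median of 3.04 TPM. ORC2 was at 45.6 TPM in sperm, against 0.103 TPM in dry seeds to 18.8 TPM in 32-cell embryos, with a median of 2.78 TPM.

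Each of these 3 genes was highest in sperm, ORC5 by 8.08 times over the next column, ORC3 by 7.19 times and ORC2 by 2.43 times. The sperm value exceeded the median of the other columns by 4.31 on the log2(TPM + 1) scale for ORC3, by 4.03 for ORC5 and by 3.62 for ORC2. The digits of the means show at least 2 libraries with transcripts for ORC1A, ORC3, ORC4 and ORC5, as for ORC6. For ORC1B and ORC2 they do not, so the digits leave it possible that 1 library gave the whole mean.

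ORC4, another AAA+ subunit, did not share the high sperm level. It was at 8.02 TPM in sperm, the lowest member there, and in the other columns between 0.334 TPM in pollen and 29.4 TPM in carpel, with a median of 8.05 TPM. Its sperm level was 27.3% of its carpel level and also lay below 2-cell embryos (16.5 TPM), 32-cell embryos (12.9 TPM), receptacle (9.70 TPM), 8-cell embryos (9.27 TPM), root (9.21 TPM) and SAM. The difference between sperm and the median of the other columns was -0.01 on the log2(TPM + 1) scale. Its sign depended on the scale. The difference was 0.997 after centring each column on the 2324 transcripts at or above 1 TPM in every column. The median of those transcripts differed by -0.58 between sperm and the median column. That value is not the shift of each gene, because the columns were centred one by one. ORC1A, for example, went from 2.26 to 2.74. Without ORC6, the members spanned 12.7 times from lowest to highest in sperm, and 2.62 times in 2-cell embryos, the column where they were most alike. The span was wider than in sperm in RAM (17.5 times) and dry seeds (116 times) only, and in both the lowest member was under 1 TPM. In leaf it was 10.7 times.

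The summed level of the 6 members other than ORC6 was 262 TPM in sperm, against 77.2 in carpel, 67.2 in 2-cell embryos, 52.5 in 32-cell embryos and 35.6 in 8-cell embryos. The sum was lowest in dry seeds (2.18 TPM) and pollen (3.47 TPM).

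All 7 members were at or above 1 TPM in sperm, where 21.7% of all listed transcripts were. All 7 were also in carpel (56.6% of all transcripts), flower (59.8%), receptacle (59.8%), root (57.6%) and in 2-cell (46.3%), 8-cell (45.4%) and 32-cell embryos (44.8%). In RAM (52.3%) and SAM (54.0%) 6 members were, with ORC1A below. In seedling (52.4%) 4 members were, in leaf (52.5%) 3, in pollen (17.8%) only ORC6 and ORC3, and in dry seeds (39.0%) only ORC5.

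A gene was counted as higher in sperm where its log2(TPM + 1) exceeded the median of the other columns by 1 or more. By this rule 6 of 7 members were higher, all but ORC4, beside 8.58% of all transcripts and 39.6% of the 7281 transcripts at or above 1 TPM in sperm, and 0 of 7 were lower, beside 40.1%. The same 6 had their highest level of all columns in sperm, beside 7.59% of all transcripts and 25.2% of those 7281. The median difference was 3.62 for the members and -0.22 for all transcripts. As the members were chosen with these values known, nothing is read from these shares.

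Across early embryos the members kept a narrower range of levels. ORC6 was at 18.5 TPM in 2-cell, 6.84 in 8-cell and 12.8 in 32-cell embryos. ORC2 was at 17.2, 8.37 and 18.8 TPM in the same order. ORC4 was at 16.5, 9.27 and 12.9 TPM. All 7 members had a lower value in 8-cell than in 2-cell embryos, from 0.322 times for ORC1A to 0.621 times for ORC1B, and 6 of 7 had a higher one in 32-cell than in 8-cell embryos, with ORC5 as the exception at 0.892 times. ORC6 in sperm was 281 times its level in 2-cell embryos, ORC5 10.5 times, ORC3 7.94 times, ORC2 2.65 times and ORC4 0.487 times.

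Other replication genes give the setting of these levels. Of 10 licensing genes, which act with ORC to load the helicase, 10 were at or above 1 TPM in sperm. By the rule above 7 were higher in sperm and 0 lower, with a median difference of 2.51. Over all transcripts 21.7% were at or above 1 TPM in sperm, 8.58% were higher and 40.1% lower. Among transcripts at or above 1 TPM in sperm 39.6% were higher. CDC6A, at 34.6 TPM, and CDC6B, at 53.5 TPM, encode the loader that joins ORC, and both were highest in sperm. CDT1A, the partner of CDC6 in loading, was at 287 TPM in sperm and CDT1B at 4.27 TPM. MCM7 was the highest licensing gene in sperm, at 309 TPM, and MCM6 the lowest, at 2.88 TPM, so the subunits of the MCM ring were unequal too.

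Of 7 genes for helicase activation, 7 were at or above 1 TPM in sperm, beside 21.7% of all transcripts. By the same rule 4 were higher and 0 lower, with a median difference of 1.62. The shares were 8.58% higher and 40.1% lower over all transcripts, and 39.6% higher among those at or above 1 TPM in sperm. PSF2, a subunit of the GINS complex, was the highest at 329 TPM, followed by ETG1, an MCM-binding factor, at 69.7 TPM. CDC45, which joins the active helicase, was at 6.18 TPM and the GINS gene PSF1 at 11.7 TPM.

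Of 11 genes of DNA synthesis, 10 were at or above 1 TPM in sperm, 3 were higher and 3 lower, with a median difference of 0.36. The shares were 8.58% higher and 40.1% lower over all transcripts, and 39.6% higher among those at or above 1 TPM in sperm. POLA2, a subunit of the priming polymerase, was at 97.5 TPM and the ligase gene LIG1 at 88.6 TPM. The sliding clamp gene PCNA2 was at 1.67 TPM in sperm against a median of 44.9 TPM in the other columns, PCNA1 at 2.77 TPM against 39.5 TPM, and POLD1, the catalytic subunit of polymerase delta, at 0.536 TPM against 8.38 TPM.

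Of 6 mitotic genes, set beside these as signs of dividing cells, 2 were higher and 2 lower, with a median difference of -0.01, beside the same shares over all transcripts. CYCB1;2, a mitotic cyclin, was at 1104 TPM in sperm and CDKB2;2, a mitotic kinase, at 293 TPM, while KNOLLE, the syntaxin of cell division, was at 0.275 TPM and CDKB2;1 at 2.55 TPM. Among the 6 genes for E2F, DP and RBR1 proteins, which control S phase genes, RBR1 was at 57.2 TPM. It was the only 1 counted as higher, with 0 lower, again beside 8.58% and 40.1% of all transcripts. The median difference of these 6 genes was -0.60. Among transcripts at or above 1 TPM in sperm the share higher was 39.6%. E2FC followed at 12.7 TPM, and the lowest were E2FA at 2.83 TPM and E2FB at 2.05 TPM. The median of each of the 5 lists in sperm was between 6.17 TPM for the E2F and RBR genes and 53.6 TPM for licensing. The median over all transcripts was 0.0209 TPM, with 43.1% of them listed at 0 in sperm. In carpel the list medians were higher for DNA synthesis (29.4 against 7.68 TPM in sperm), mitosis (74.9 against 11.5) and E2F and RBR (21.0). They were slightly lower in carpel for licensing (51.4 TPM) and helicase activation (15.0 against 18.9 TPM).

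**Figure D5:**
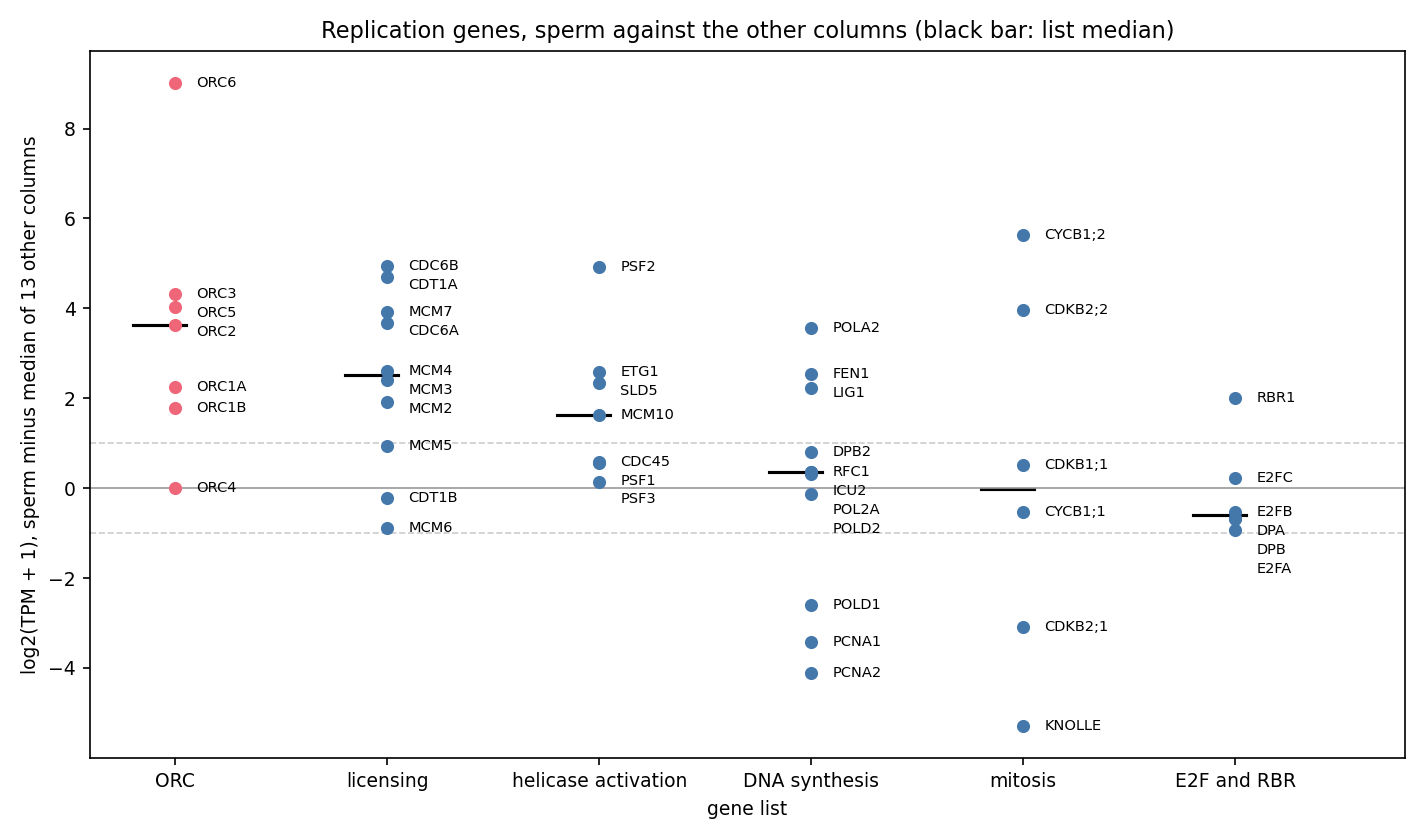
Difference of log2(TPM + 1), sperm minus the median of the 13 other columns (vertical axis), for each gene of the origin recognition complex and of 5 lists of replication and cell cycle genes (horizontal axis), with black bars at list medians and dashed lines at 1 and -1. ORC6 is the highest point at 9.02, ORC4 lies at -0.01, and PCNA1, PCNA2, POLD1, CDKB2;1 and KNOLLE lie below -1.

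The transcripts whose pattern was most like a member's were ranked by Pearson's r of log2(TPM + 1) over the 14 columns, among 21930 transcripts that reached 5 TPM in a column. All columns come from 1 table with a fixed total, so these values describe the table only. Closest to ORC6 were SDG4 (AT4G30860), a histone methyltransferase gene, with r = 0.985 and 4187 TPM in sperm, AT5G15030 with r = 0.976 and 7778 TPM, AT1G48740 with r = 0.974 and 2062 TPM, PAB7 (AT2G36660), a poly(A)-binding protein gene, with r = 0.973 and 1275 TPM, and AT3G01015 with r = 0.958 and 391 TPM. All 5 had a median of at most 8.71 TPM in the other columns. Without the sperm column 2 of the 5 were still among the closest 5.

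The other members were closest to different transcripts, but these lists depend on the measure and on the sperm column. With Spearman's rho 0 of the 3 were kept for ORC1B, ORC4 and ORC5 and 1 for ORC1A, and without the sperm column 0 were kept for ORC4 and ORC5 and 1 for each of the other 4 members. With Spearman's rho 2 were kept for ORC2 and for ORC3. By Pearson's r over all columns the closest to ORC1B were ETG1 (r = 0.979), the helicase gene MCM2 (r = 0.974) and AT4G14200 (r = 0.968). For ORC2 they were CDKB1;2, a mitotic kinase gene (r = 0.974), CKS2, a kinase subunit gene (r = 0.965), and AT4G39630 (r = 0.958). For ORC3 they were SYN3, a cohesin subunit gene (r = 0.987), DCP5-L (r = 0.987) and the DNA repair gene BRCA1 (r = 0.978). For ORC4 they were UBP21 (r = 0.971), RPA70D, a gene for a protein that binds single-stranded DNA (r = 0.968), and AT1G27880 (r = 0.966). For ORC1A they were emb1379 (r = 0.933), AT3G14890 (r = 0.930) and AT4G14490 (r = 0.923), and for ORC5 AT1G21280 (r = 0.974), AT1G04790 (r = 0.970) and AT3G07790 (r = 0.969).

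Among themselves, and over the 13 columns other than sperm, the 15 pairs of members without ORC6 had r from 0.694 to 0.954, with a median of 0.824. The 6 pairs with ORC6 had r from 0.210 with ORC5 to 0.568 with ORC1A, with a median of 0.503. These columns include pollen, with ORC6 at 41.3 TPM and no other member above 1.08 TPM. They also include flower, with ORC6 at 28.5 TPM and the others at most at 7.36 TPM. The values of r without pollen and flower were not computed, so nothing is read from the lower r about the remaining columns.

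The genes next to ORC6 on chromosome 1 did not share its sperm level. CUL3, listed before it, was at 9.23 TPM in sperm against a median of 19.9 TPM in the other columns, and AT1G26850, listed after it, at 73.9 TPM against 95.7 TPM. Of the 12 genes next to the other 6 members, the highest in sperm was AT5G16680, beside ORC3, at 7.14 TPM.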

How the data were processed

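The deposited table holds TPM values by the authors, 1 column for sperm and 13 for other tissues, each scaled to 1000000 TPM over 33602 transcripts, 1 per locus. Per the submitters' processing notes the tools were kallisto 0.43.1, STAR 2.5.2a, Trim Galore 0.4.1, bedtools and SAMtools, with build TAIR10. The sources used here do not give their roles or the transcript annotation. The digits of the sperm values show a mean of 3 numbers: of 2424 values from 10 to 100 TPM, 91.8% were whole steps of 0.0001 TPM after multiplication by 3, within 0.03 of a step, and 30.5% without it.

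Levels, shares and differences of log2(TPM + 1) were computed with Python 3.11.15, pandas 2.3.3 and numpy 2.4.6. The ranking by Pearson's r was run on simulated data, with near copies of the ORC6 pattern planted among shuffled transcripts. That run checks only that the code finds near copies. A simulated check of the calls had an outcome fixed by its design and tests nothing. Sperm was set against the median of the other 13 columns, with 1 on the log2 scale as the limit of a call. With 1 mean per column no test was run. The columns other than sperm belong to libraries outside the samples described here and were used as the authors' values. The members, the 5 gene lists and the marker lists were chosen with earlier results of these data known. Named genes were all members, the 2 highest and 2 lowest of each list in sperm, and the 3 transcripts most like each member (5 for ORC6). CDC6A, CDC6B, PCNA1 and single markers were named after their values were seen. Names were checked against a RefSeq table for TAIR10.1, in which 35 of the 40 list names stood; CDC6A, CDC6B, POLD1, FEN1 and E2FA rest on the locus. That table gave gene order only. Other settings were a pseudocount of 0.1 TPM, a threshold of 5 TPM, the mean in place of the median, leaving out pollen, rescaling without organellar or the 10 highest transcripts, centring, and, for likeness, Spearman's rho or leaving out sperm.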

Additional observations from a re-analysis of the deposited data

How the results depend on the processing

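Of 186 values recomputed under other settings, 148 held and 3 reversed. A difference between sperm and the other columns was taken to hold where its direction and its call did, whatever its size, and any other value where it stayed within 1.5 times, for ORC1A and ORC1B as a ratio of the 2. Centring gave ORC2 a difference of 4.62, against 3.62 as reported. All 3 reversals were the difference of ORC4 between sperm and the other columns, -0.01 as reported. It was 0.43 against the mean of the other columns and 0.65 without the 10 highest transcripts. After centring it was 0.997, just under the limit of a call. Leaving out those 10 multiplied all other sperm levels by 1.83. The counts of 7 members at or above 1 TPM in sperm, 6 higher in sperm and 6 highest in sperm stayed the same under every setting run on them. The centred count of members highest in sperm was added after seeing the data. At 5 TPM the counts of members were 4 in receptacle and root, 3 in flower and SAM, 1 in RAM, leaf and pollen and 0 in seedling and dry seeds, and that of the DNA synthesis genes in sperm was 6. Without the 10 highest transcripts 4 members reached 1 TPM in pollen and 2 in dry seeds. ORC1A minus ORC1B with a pseudocount of 0.1 TPM was -2.35 in RAM, -2.23 in root, -2.21 in SAM and -1.77 in seedling. With Spearman's rho 3 of the 5 transcripts closest to ORC6 were kept. Leaving out single sperm libraries was not run, because the column is a mean. No paired analysis was possible because the table has 1 sperm column without replicate numbers. Unknown depth limits the values under 1 TPM most.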

Other observations

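The number of libraries behind a column can be read from its digits in the same way, except that seedling needed a finer step of 0.00001 TPM. The digits gave 2 for carpel, RAM, root, pollen and the 3 embryo columns, 3 for leaf and dry seeds, 4 for seedling and SAM and 9 for receptacle, which are the numbers of runs that the design text names, pollen aside. Flower was the exception. Its values showed the digits of 1 library, while the design text names 2 floral bud runs, and ORC6 was at 28.5 TPM there. That column also held pollen markers, with VGD1 at 564 TPM, AGP6 at 231 TPM and VEX1 at 96.8 TPM, above its level in pollen. It listed the early anther gene A9 and the later one MS1 at 0, with AMS at 1.12 TPM. These anther genes were highest in the carpel column, with A9 at 17.5 TPM, AMS at 1.42 TPM and MS1 at 0.215 TPM. The part of anther RNA in the carpel values was not tested. The carpel markers were not confined to carpel: CRC was at 51.6 TPM there and at 104 TPM in receptacle. SHP1 was at 84.2 TPM in carpel, 228 TPM in sperm, 562 TPM in pollen and 6209 TPM in 2-cell embryos. WOX5 was at 1.28 TPM in RAM and at 23.6 TPM in 32-cell embryos.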
